A study of Mus musculus with 18 samples.

Results

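The genes described here are those of the mitochondrial respiratory chain and the ATP synthase. They were taken as every array symbol that begins with Nduf, Uqcr, Cox4 to Cox8 or Atp5, or that is Sdha, Sdhb, Sdhc or Sdhd. These names gave 81 symbols on 119 probes, of 30869 symbols on 45281 probes in all. A symbol with several probes was represented by the brightest over all arrays: 51 symbols had 1 probe and 30 had more. By complex there were 36 symbols of complex I, 4 of complex II, 7 of complex III, 17 of complex IV and 16 of the ATP synthase. Among the last, Atp5s and Atp5sl are counted by name as related proteins and not as subunits. The remaining symbol, Cox4nb, matched by name only and is today called Emc8, a protein of the endoplasmic reticulum membrane.

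Samples were 18 Illumina MouseWG-6 v2 bead arrays, 3 for each of 6 conditions, of mouse D3 embryonic stem cells of strain 129s2/SvPas. Knockdown cells carried an shRNA against HPRT, the purine salvage enzyme lost in Lesch-Nyhan disease, and control cells carried a viral shRNA against luciferase. Both were examined as ES cells maintained on mouse embryo fibroblast feeder cells, as spherical neural masses (SNM), and at the final neuronal stage of a dopaminergic differentiation protocol. The 3 arrays of a condition share 1 pool of RNA from replicate cultures, so every SD and p-value covers array measurement error alone, with culture-to-culture spread unseen. All levels are log2 intensities after background correction and normalization, and a level of one probe cannot be set against that of another.

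Complexes I and II take electrons from NADH and succinate, complex III passes them to cytochrome c, and complex IV (cytochrome c oxidase) gives them to oxygen, while the ATP synthase uses the resulting proton gradient to make ATP. Most of their nuclear-encoded subunits are present in nearly every cell. Complex IV is the exception, in that several small subunits exist as paired genes: Cox6a2, Cox7a1 and Cox8b are forms of heart and skeletal muscle whose widely expressed counterparts are Cox6a1, Cox7a2 and Cox8a, and Cox6b2, Cox7b2 and Cox8c are forms known from testis.

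Promoters are printed for 4 muscle and widely expressed forms whose levels are given below, chosen among those with a window in RefSeq. Others with a window, such as Cox6b1, are not printed. Only Cox7a1 and Cox7a2 are a printed pair, since Cox6a2 had no window and Cox8a was not analysed. Each run is the 250 bases before the annotated start, 5′ to 3′ on the gene's own strand, in build GRCm38.p6. Capitals mark matches to the motifs searched.
Cox8b: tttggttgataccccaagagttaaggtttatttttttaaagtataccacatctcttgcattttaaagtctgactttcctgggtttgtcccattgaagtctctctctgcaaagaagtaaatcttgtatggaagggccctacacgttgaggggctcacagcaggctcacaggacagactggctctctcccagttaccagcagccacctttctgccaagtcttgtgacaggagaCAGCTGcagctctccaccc
Cox7a1: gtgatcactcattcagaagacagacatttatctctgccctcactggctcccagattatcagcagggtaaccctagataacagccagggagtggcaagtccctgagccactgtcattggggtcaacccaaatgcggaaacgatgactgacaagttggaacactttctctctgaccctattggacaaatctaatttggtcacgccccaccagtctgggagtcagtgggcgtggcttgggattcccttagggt
Cox7a2: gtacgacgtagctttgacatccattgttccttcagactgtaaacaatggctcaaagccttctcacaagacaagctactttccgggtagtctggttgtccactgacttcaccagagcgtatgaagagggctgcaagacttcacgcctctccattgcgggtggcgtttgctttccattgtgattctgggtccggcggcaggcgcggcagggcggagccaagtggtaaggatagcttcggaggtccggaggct
Cox6a1: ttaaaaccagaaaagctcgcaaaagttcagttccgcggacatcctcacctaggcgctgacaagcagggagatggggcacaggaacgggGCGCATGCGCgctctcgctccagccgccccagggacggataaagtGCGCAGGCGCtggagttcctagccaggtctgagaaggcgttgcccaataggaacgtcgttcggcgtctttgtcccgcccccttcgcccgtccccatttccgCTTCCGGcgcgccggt
The windows lie at chr7:140900447-140900696, minus strand (Cox8b), chr7:30183921-30184170, plus strand (Cox7a1), chr9:79759854-79760103, minus strand (Cox7a2) and chr5:115348959-115349208, minus strand (Cox6a1).

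On both strands, 4 motifs were searched: CAGCTG, a form of the E-box bound by myogenic factors; GCGCA followed after 1 free base by GCGC, a form of the NRF1 site; CCGGAAG, a core of ETS factors such as GABP; and AAGGTCA, a core of the estrogen-related receptors. The capitals in Cox8b are an E-box that begins 19 bases before the start. Those in Cox6a1 are NRF1 matches that begin 162 and 117 bases before the start and an ETS match that begins 16 bases before it. Cox7a1 and Cox7a2 held none of the 4. Of 32851 windows in the table, 13% held the E-box, 3.74% the NRF1 letters, 6.91% the ETS letters and 4.08% the estrogen-related receptor letters. Windows were found for 61 of the 81 symbols (66 windows), and among these the shares were 7.58%, 19.7%, 18.2% and 6.06%. A match is a description of letters and not evidence of binding.

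The knockdown was checked first. Hprt1, on chromosome X, was at 12.04 ± 0.03 (SD, n = 3 arrays) in control and 7.95 ± 0.19 in knockdown ES cells, a 17-fold difference. The differences were 3.39-fold at the SNM stage and 21.8-fold at the neuronal stage. Each array detected between 18827 and 22202 probes at a detection p-value under 0.05, and arrays of the same condition correlated at 0.989 to 0.996 over probes. Of the neuron markers on the array, 5 of 7 were detected in control and 4 of 7 in knockdown cells of the neuronal stage. Snap25 and Nefl were detected in no condition, and Tubb3 not in knockdown cells of any stage.

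Of the 81 genes, 77 were detected in at least 1 condition and 72 in all 6. The probes of Ndufs1, Sdha, Uqcrfs1 and Uqcrq were detected nowhere and gave no level. Cox6a2, Cox8b, Cox4i2, Cox7b2 and Cox8c, all of them tissue forms of complex IV, were detected in some conditions only. A gene entered a test if either condition in it had the gene detected on its 3 arrays. It was called at a limma adjusted p-value under 0.05 with a change of at least 1.5-fold, and adjusted p-values are Benjamini-Hochberg values over all probes tested.

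At the ES stage, no member of the respiratory chain or ATP synthase differed between knockdown and control cells by the calling rule. Among all symbols tested, 0.531% were called higher and 1.27% lower. The median log2 difference of the 75 members tested was 0.03, against 0.01 over all symbols. With no minimum change, 4 members were higher and 1 lower at an adjusted p-value under 0.05 in limma, where 6.53% of all symbols were higher and 5.95% lower. The largest of these differences was for Cox6c, a small subunit of complex IV, at -0.42 ± 0.12 (SE, adjusted p = 0.0296).

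At the SNM stage, 2 members were higher in knockdown cells, Cox8b and Cox6a2, and none was lower. Of all symbols tested, 12% were called higher and 8.76% lower, so the members called, 2 of 75 tested, were fewer in proportion. Both are muscle forms of complex IV. Cox8b stood at 5.10, 5.28 and 4.88 on the control arrays and at 8.19, 8.25 and 8.41 on the knockdown arrays. Cox6a2 stood at 5.77, 5.73 and 5.61 on the control arrays and at 6.78, 6.75 and 6.85 on the knockdown arrays. The log2 difference was 3.20 ± 0.09 (SE) for Cox8b, or 9.2-fold (limma adjusted p = 1.74e-13), and 1.09 ± 0.12 for Cox6a2, or 2.13-fold (adjusted p = 1.15e-06). Under 29 alternatives of processing and arrays both calls held, but the log2 differences were as small as 2.13 for Cox8b and 0.66 for Cox6a2. Cox7a1, the remaining muscle form, whose arrays overlapped, differed by -0.01 with a 95% interval from -0.19 to 0.17.

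Among the other members at the SNM stage, differences below 1.5-fold were spread around 0. The median of all 75 tested was 0.06, against -0.02 over all symbols, and it turned to -0.08 with scaling to the 75th percentile and -0.04 with no normalization between arrays. With no minimum change, 22 were higher and 8 lower at an adjusted p-value under 0.05 in limma, where 26.8% of all symbols were higher and 27.8% lower. Ndufa3 of complex I differed by 0.45 and Ndufb7 by 0.42. In the other direction Atp5g2, which encodes subunit c of the rotor ring, differed by -0.47 and Ndufab1 by -0.46. By complex the medians were 0.01 in complex I, 0.13 in complex II, 0.02 in complex III, 0.13 in complex IV and 0.10 in the ATP synthase.

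At the neuronal stage these 2 forms stood the other way, and Cox7a1 joined them. The knockdown arrays were lower for 6 members, Cox8b, Cox6a2, Cox7a1, Ndufab1, Ndufa5 and Ndufa10, and higher for none, while 14.4% of all symbols tested were called lower and 14.3% higher. Cox8b was at 10.85, 10.81 and 10.91 on the control arrays and at 4.54, 4.44 and 4.36 on the knockdown arrays, where it was not detected. Its level was therefore at least 69.1-fold lower in knockdown cells. It entered the test through the control arrays alone. The limma adjusted p-value, 7.69e-18, belongs to the fitted log2 difference of -6.41 against arrays at the floor and not to this bound. This bound is set against the lowest signal detected on each knockdown array, after background correction.

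Cox6a2 was at 10.22, 10.15 and 10.19 on the control arrays and at 4.99, 5.01 and 5.11 on the knockdown arrays, a log2 difference of -5.15 ± 0.12 (SE) or 35.5-fold (adjusted p = 2.4e-15 in limma). Cox7a1 was at 8.79, 8.84 and 8.79 on the control arrays and at 7.14, 7.24 and 6.97 on the knockdown arrays. That is a log2 difference of -1.69 ± 0.09, or 3.23-fold (adjusted p = 7.4e-11). All 3 genes lie on chromosome 7, a location given without the share of all symbols there. Under the 29 alternatives the smallest fitted log2 differences were -4.81 for Cox8b, -3.87 for Cox6a2 and -1.37 for Cox7a1.

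No widely expressed counterpart was called lower. Cox6a1 was at 12.48, 12.39 and 12.42 in control and 12.95, 12.87 and 12.74 in knockdown cells of the neuronal stage. It was 1.34-fold higher in knockdown cells (log2 0.42 ± 0.07, adjusted p = 0.000113 in limma), short of the 1.5-fold rule. Cox7a2 was at 9.03, 8.94 and 9.19 in control and 8.98, 8.99 and 9.03 in knockdown cells, a difference of -0.05 with a 95% interval from -0.25 to 0.15. Cox4i1, the subunit 4 form of most tissues, was at 13.78, 13.67 and 13.69 in control and at 13.70, 13.56 and 13.48 in knockdown cells, and the arrays overlapped. Of the 9 widely expressed subunits of complex IV, none was called at any of the 3 stages in the comparison of knockdown and control cells. Cox8a was not analysed here.

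**Figure D1:**
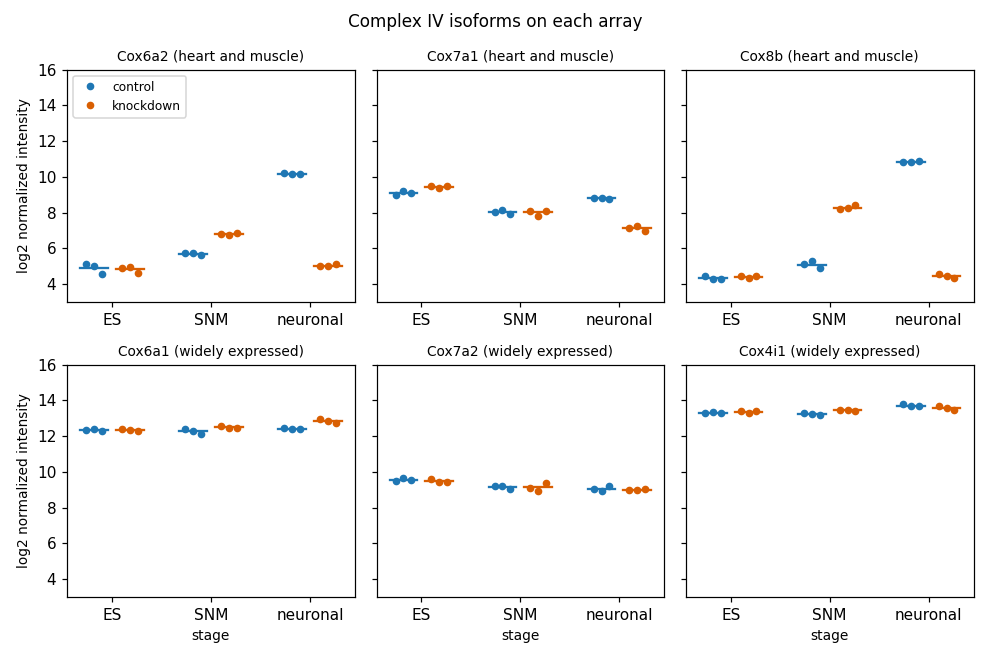
Log2 normalized intensity (y axis) of the 3 heart and muscle forms of complex IV (top) and 3 widely expressed subunits (bottom) at each stage (x axis). Points are single arrays and bars the mean of 3 arrays of 1 RNA pool, with control cells in blue and knockdown cells in orange. Cox8b and Cox6a2 are higher in knockdown cells at the SNM stage and near the floor of the scale in knockdown cells of the neuronal stage, where control arrays are between 10.15 and 10.91, while no gene of the lower panels was called.

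Marker genes of skeletal muscle moved with Cox8b and Cox6a2 at the SNM and neuronal stages, and with Cox7a1 at the neuronal stage alone. Of 10 markers, among them skeletal actin Acta1, neonatal myosin Myh8, the creatine kinase Ckm and the myogenic factor Myog, all were detected in control cells of the neuronal stage and 4 in knockdown cells. Their summed normalized intensity was between 85607 and 86883 on the control arrays and between 388 and 565 on the knockdown arrays, and all 10 were called lower. At the SNM stage the sum was 2560 to 2629 in control and 4324 to 4766 in knockdown cells. There 8 and 9 markers were detected, and 7 were called higher in knockdown cells. Over all symbols 14.4% were called lower at the neuronal stage and 12% higher at the SNM stage. In ES cells 5 and 4 of the 10 were detected, and the sum was 692 to 838 over both cell types, while Cox7a1 was at 9.11 in control ES cells, above its neuronal-stage level of 8.80. Ckm was not detected in ES cells, in SNM or in knockdown cells of the neuronal stage. In these bulk samples, fewer muscle cells and less RNA per cell cannot be told apart.

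Markers of other tissues that use the same subunit forms were near the floor. Of 5 markers of heart muscle alone, 1 was detected in control cells of the neuronal stage (Myh6) and none in knockdown cells, with sums of 129 to 147 and 111 to 124. In SNM, 1 was detected in control and 3 in knockdown cells, with sums of 162 to 192 and 236 to 246. Of 3 markers of brown fat, 1 (Cidea) was detected in every condition, and Ucp1 and Elovl3 were detected in none. Between knockdown and control cells of the neuronal stage, 4 of 5 neuron markers tested and 4 of 4 fibroblast markers were also lower, and 6 of 6 oligodendrocyte markers were higher. Pluripotency markers were lower as well (4 of 4, with sums of 762 to 828 against 3048 to 3206), and 3 of 4 astrocyte markers were higher (8465 to 9305 against 5850 to 6630). In knockdown SNM, 4 of 5 oligodendrocyte markers tested were lower (2566 to 2987 against 9064 to 9501), 3 of 4 pluripotency markers were lower and 3 of 4 astrocyte markers were higher. Over all symbols 14.4% were called lower and 14.3% higher at the neuronal stage, and 8.76% lower and 12% higher at the SNM stage. The part of these cell types in the levels of the respiratory genes was not tested.

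Complex I held the other called members of the neuronal stage. Ndufab1, an acyl carrier protein that is also a subunit, was at 6.16, 6.14 and 6.15 on the control arrays and 5.28, 5.34 and 5.15 on the knockdown arrays (-0.89 ± 0.11 SE, 1.86-fold, limma adjusted p = 2.22e-06). Ndufa5, a subunit of the quinone-binding arm, was at 11.56, 11.29 and 11.61 in control and 10.83, 10.85 and 10.72 in knockdown cells (-0.69 ± 0.08, 1.61-fold, adjusted p = 3.29e-06). Its other probe differed by -0.57 and was not called. Ndufa10, an accessory subunit, was at 11.03, 11.71 and 11.38 in control and 10.48, 10.72 and 10.90 in knockdown cells (-0.67 ± 0.18, 1.59-fold, adjusted p = 0.00429). Its control arrays were spread more widely than those of Ndufa5, and without control array 2 or knockdown array 1 its difference was -0.50 and -0.56, below 1.5-fold. Ndufab1 was below 1.5-fold without background correction, at -0.46 with quantile normalization and -0.50 with scaling to the 75th percentile.

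Most of the remaining members were lower in knockdown cells of the neuronal stage by less than 1.5-fold. Of the 75 tested, 56 had a negative and 19 a positive difference, and the median was -0.18 against 0.01 over all symbols. With no minimum change, 42 were lower and 8 higher at an adjusted p-value under 0.05 in limma, where 30.2% of all symbols were lower and 30% higher. The median stayed negative under every alternative, between -0.21 and -0.15. The sign was shared by complex I (29 of 35 tested lower, median -0.22), the ATP synthase (13 of 16, median -0.21) and complex III (3 of 5, median -0.18). In complex IV 9 of 15 were lower (median -0.13), and in complex II 1 of 3 (median 0.04).

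In complex I, all 6 tested subunits of the NADH-oxidising arm had negative differences, 5 of them at an adjusted p-value under 0.05. Ndufv1, which binds NADH, was at 11.89, 11.92 and 11.95 in control and 11.55, 11.56 and 11.52 in knockdown cells (-0.38 ± 0.05 SE, adjusted p = 5.72e-06 in limma). Ndufs3, of the quinone-binding arm, differed by -0.46. Ndufc2 was the accessory subunit with the largest positive difference, 0.34.

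In the ATP synthase, Atp5a1 and Atp5b, subunits of the catalytic part, differed by -0.16 ± 0.06 (SE, adjusted p = 0.0336) and -0.24 ± 0.06 (adjusted p = 0.00398 in limma). Atp5b was at 14.24, 14.32 and 14.28 in control and 14.03, 14.13 and 13.97 in knockdown cells. Of the genes for subunit c of the rotor ring, Atp5g3 differed by -0.38 ± 0.05 (adjusted p = 1.09e-05) and Atp5g2 by 0.13, with a 95% interval from -0.03 to 0.28. All 7 members of the peripheral stalk and membrane part were negative, and the largest was Atp5k at -0.58 ± 0.11, or 1.49-fold.

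Of the complex II and III genes that the names gave, none was called at any stage between knockdown and control cells. Cyc1, a complex III subunit outside the name pattern, is given with the cytochrome c genes below. Sdhb, the iron-sulphur subunit of succinate dehydrogenase, was at 10.97 ± 0.03 (SD, n = 3 arrays) in control and 11.01 ± 0.03 in knockdown cells of the neuronal stage. Its difference was 0.04, with a 95% interval from -0.08 to 0.16. Uqcrc1, a core protein of complex III, differed by -0.36 ± 0.07 (SE, adjusted p = 0.000249 in limma) and Uqcrh, the hinge protein, by 0.42. Cox5a and Cox5b, widely expressed subunits of complex IV, differed by -0.21 and -0.39. Ndufa4, named for complex I and now placed in complex IV, differed by 0.28 and Cox7a2l, a factor of supercomplex assembly, by 0.01 with a 95% interval from -0.17 to 0.20. Second probes mostly gave no call, with exceptions that the brightest probe did not share: at the neuronal stage a dim probe of Ndufb8 was called lower (-0.59) and one of Cox6b2 higher (0.60), and at the ES stage a dim probe of Atp5o was called higher (0.63).

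**Figure D2:**
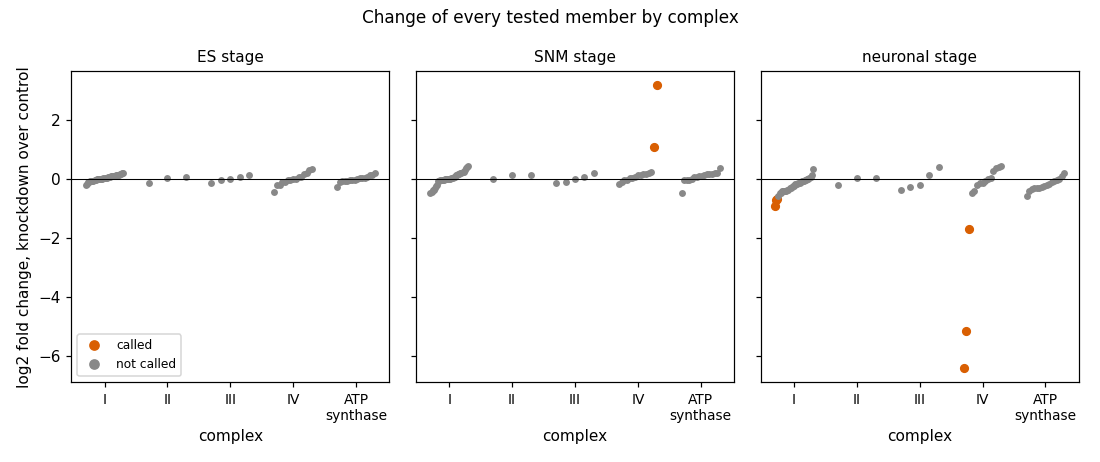
Log2 fold change of knockdown over control (y axis) for every tested member of the 5 complexes (x axis, sorted by value within a complex) at each stage. Orange points were called (adjusted p-value under 0.05 and at least 1.5-fold) and grey points were not. At the neuronal stage the 3 muscle forms of complex IV lie between -6.41 and -1.69, where the lowest, Cox8b, was not detected in knockdown cells and its point is a fitted value at the floor, and most grey points lie a little below 0.

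The difference between the stages was tested in the same model, as the knockdown effect at the neuronal minus that at the SNM stage. Hprt1 itself was lowered less at the SNM than at the neuronal stage, as given above, and the part of this in the differences was not tested. It was called lower for 7 members, Cox8b, Cox6a2, Cox7a1, Ndufb7, Ndufa5, Cox7b and Ndufa11, and higher for Atp5g2. Of all symbols tested, 16% were called lower and 13.3% higher. Ndufb7, a subunit of the membrane arm, was at 8.82, 8.87 and 8.79 in control and 9.28, 9.11 and 9.36 in knockdown SNM. At the neuronal stage it was at 9.44, 9.41 and 9.34 in control and 8.89, 8.80 and 8.79 in knockdown cells. Its knockdown effect was thus 0.42 at the SNM and -0.57 at the neuronal stage, a change of -0.99 ± 0.09 (SE, adjusted p = 1.78e-07 in limma). With no minimum change the difference was lower for 38 members and higher for 5 in limma, where 24.4% of all symbols were lower and 24.2% higher. The median over 75 members was -0.27 against 0.04 over all symbols, and it was -0.33 in complex I and -0.30 in the ATP synthase, where 15 of 16 were negative. With scaling to the 75th percentile the median was -0.12 against 0.08 over all symbols, with 48 members negative and 27 positive in place of 63 and 12.

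During differentiation, the muscle forms took different courses in the control and the knockdown cells. In control cells, Cox8b rose from SNM to the neuronal stage by 5.77 on the log2 scale (54.6-fold, limma adjusted p = 4e-17), Cox6a2 by 4.48 (22.4-fold, adjusted p = 1.92e-14) and Cox7a1 by 0.78 (1.72-fold, adjusted p = 9.38e-07). In knockdown cells Cox8b fell by at least 11.6-fold, Cox6a2 by 3.38-fold and Cox7a1 by 1.87-fold. Under the 29 alternatives the smallest fitted log2 changes of Cox8b and Cox6a2 were 4.47 and 3.53 in control cells. In knockdown cells they were -2.44 and -0.97. The rise of Cox8b and Cox6a2 in knockdown cells had come between the ES and SNM stages. Cox8b was not detected in ES cells (4.43, 4.36 and 4.43 on the knockdown arrays). In knockdown SNM its level exceeded this by at least 10.2-fold. Cox6a2, detected on 2 of 3 control and 1 of 3 knockdown ES arrays, rose by 1.97 on the log2 scale in knockdown cells. The smallest fitted rises in knockdown cells under the 29 alternatives were 2.28 for Cox8b and 0.92 for Cox6a2. In control cells the 2 genes were called higher in SNM than in ES cells, by at least 1.16-fold for Cox8b and by 0.81 on the log2 scale for Cox6a2, but neither was called without background correction. Cox7a1 was already at 9.0, 9.22 and 9.11 in control and 9.49, 9.37 and 9.48 in knockdown ES cells and fell to SNM in both, by 1.09 and 1.43 on the log2 scale.

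From SNM to the neuronal stage, 3 members were called higher and 2 lower in control cells, and 1 higher and 6 lower in knockdown cells. Over all symbols these shares were 15.4% higher and 14.8% lower in control cells, and 14% and 15.8% in knockdown cells. Apart from the muscle forms the calls were few. Uqcrb and Cox4nb were lower in both, and Ndufab1 was lower and Cox6b2 higher in knockdown cells. Cox6b2, at 1.5-fold, was not called without knockdown SNM array 3 or knockdown neuronal array 2, nor under 3 other normalizations. Differences over all 75 members tested, the called ones included, leaned one way in control cells. Of these, 65 were positive, with a median of 0.19 against -0.06 over all symbols. In knockdown cells 30 of 75 were positive, and the median was -0.08 against -0.03. Counted at any fold, 44 were higher and 8 lower in control cells at an adjusted p-value under 0.05 in limma (28.4% and 34.5% of all symbols), and 12 and 19 in knockdown cells (28.7% and 33.5%). In control cells this held in complex I (32 of 35 positive, median 0.19), complex IV (12 of 15, median 0.29) and the ATP synthase (14 of 16, median 0.24). Among all scalings the control median stayed positive, between 0.07 and 0.19.

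**Figure D3:**
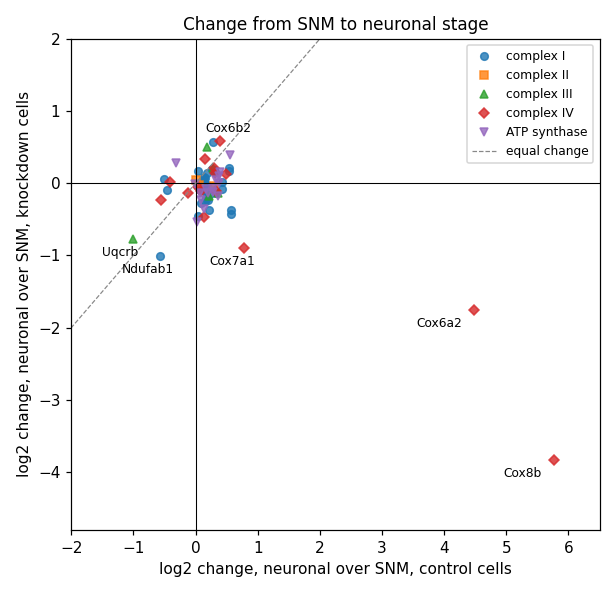
Log2 change of neuronal over SNM levels in control cells (x axis) and knockdown cells (y axis), one point for each member tested in both, with a shape for each complex and a dashed line of equal change. Cox8b (5.77 and -3.84), Cox6a2 (4.48 and -1.76) and Cox7a1 (0.78 and -0.90) lie at lower right, far from the cluster around 0, where the -3.84 is a fitted value against arrays without detection, and Uqcrb lies near the line.

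From ES to SNM, 2 members were called higher and 8 lower in control cells, and 5 higher and 7 lower in knockdown cells. Those counts stand against 25.2% and 24.4% of all symbols in control cells and 28.1% and 29.6% in knockdown cells. Counted at any fold, 23 members were higher and 24 lower in control cells in limma (36.7% and 39.9% of all symbols), and 29 and 23 in knockdown cells (38.7% and 43%). The testis forms were among the lower ones. Cox7b2 was at 6.92, 6.82 and 6.88 in control ES cells and at 7.0, 6.59 and 6.81 in knockdown ES cells. It was not detected in SNM or at the neuronal stage of either cell type, so it was at least 4.33-fold lower in control and 4.35-fold lower in knockdown SNM. Cox8c was at 6.23, 6.32 and 6.02 in control and 6.12, 6.06 and 5.77 in knockdown ES cells, and was likewise not detected later, at least 2.69-fold and 2.47-fold lower in SNM.

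Cox6b2, the testis form of subunit 6b, was detected throughout. It was at 9.28, 9.24 and 9.25 in control ES cells and 8.84, 8.59 and 8.47 in control SNM, a fall of 1.54-fold (limma adjusted p = 9.14e-06), and it fell by 1.68-fold in knockdown cells. The control fall was below 1.5-fold without control SNM array 3, under quantile normalization without background correction, with no normalization between arrays and in the mean over its probes, and the smallest log2 change among these was -0.28. The mean over its probes also ended the call in knockdown cells. Its widely expressed partner Cox6b1 went the other way, at 11.66, 11.63 and 11.52 in control ES cells and 12.08, 12.14 and 12.17 in control SNM (1.44-fold). In knockdown cells Cox6b1 rose by 1.68-fold and was called, but with scaling to the 75th percentile its log2 change was 0.32 and not called. Cox4i2, the lung and low-oxygen form of subunit 4, stayed between 4.61 and 5.76 on all 18 arrays and was called in no comparison.

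Uqcrb, a small subunit of complex III, fell at each step. Its levels were 8.79, 8.86 and 8.80 in control ES cells, 7.0, 7.15 and 7.10 in SNM and 6.04, 6.04 and 6.14 at the neuronal stage. Knockdown cells differed from control cells by -0.12, -0.10 and 0.14 at the ES, SNM and neuronal stages, and no stage gave a call. The falls were 3.33-fold and 3.29-fold from ES to SNM and 2.01-fold and 1.7-fold after it, in control and knockdown cells. Uqcrb has 1 probe, and none of the other 4 members of complex III tested was called between stages. Uqcrc2, a core protein, differed by 0.28 and 0.21 between SNM and the neuronal stage. The last of these falls, in knockdown cells, was below 1.5-fold without background correction. Atp5sl, counted with the ATP synthase by its array name and today called Dmac2, fell by 2.02-fold in control and 1.96-fold in knockdown cells from ES to SNM. Of complex I, Ndufa3 (1.61-fold) and Ndufb7 (1.53-fold) were called higher in knockdown SNM than in knockdown ES cells. Neither was called with scaling to the 75th percentile, and Ndufb7 was not called without knockdown ES array 2 or knockdown SNM array 3. Atp5k, a small membrane subunit of the ATP synthase, was lower in control SNM by -0.71 but was not called under any of 3 other normalizations.

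**Figure D4:**
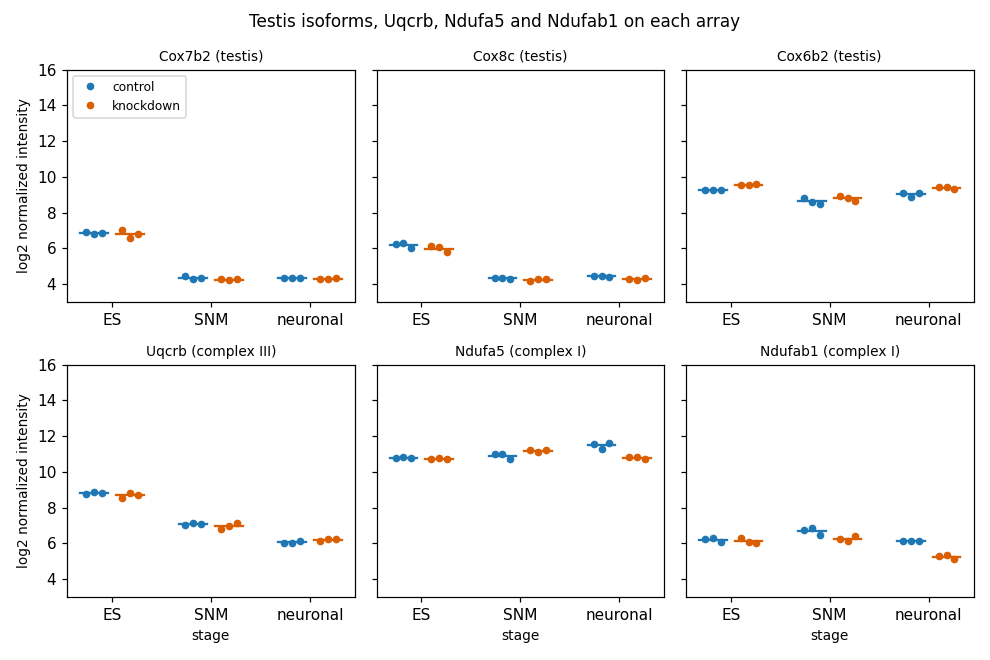
Log2 normalized intensity (y axis) of the 3 testis forms of complex IV, Uqcrb and the complex I subunits Ndufa5 and Ndufab1 at each stage (x axis). Points are single arrays and bars the mean of 3 arrays, with control cells in blue and knockdown cells in orange. Cox7b2 and Cox8c are near the floor after the ES stage, Uqcrb falls at each step in both cell types, and Ndufa5 and Ndufab1 are lower in knockdown cells of the neuronal stage.

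Genes around the respiratory chain were followed as lists. Of 11 tested genes of cytochrome c and complex IV assembly, 4 were called lower in knockdown cells of the neuronal stage and 1 higher, with a median of -0.16, beside 14.4% of all symbols lower and 14.3% higher. Cyc1, the haem protein of complex III that gives electrons to cytochrome c, differed by -0.72 and Cycs, cytochrome c itself, by -0.63, while the assembly factor Surf1 was higher by 0.84. Of 17 tested genes of the citric acid cycle and pyruvate dehydrogenase, 3 were called lower, a share near that of all symbols, and none higher (median -0.26). The lower ones were led by Idh3g at -0.70 and Dlat at -0.69.

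Of 15 regulators of mitochondrial genes, 4 were called lower and none higher in knockdown SNM: Gabpb1 (-0.83), the mitochondrial transcription factor Tfam (-0.73), Pprc1 (-0.64) and Gabpa (-0.61). Over all symbols 8.76% were lower and 12% higher at this stage. At the neuronal stage 1 was lower, the coactivator Ppargc1b (-1.37), and 2 were higher, the DNA polymerase Polg (0.63) and the helicase Peo1 (0.62). Over all symbols 14.4% were lower and 14.3% higher at that stage, so these counts were near or under the share of all symbols. Of 9 tested carriers and mitochondrial creatine kinases, 2 were higher in knockdown SNM and 3 lower in knockdown cells of the neuronal stage, where 12% of all symbols were higher and 14.4% lower in turn. Ckmt2, the creatine kinase of muscle mitochondria, was higher by 0.91 and then differed by -2.33. Ckmt1, the widely expressed form, was higher by 0.72 and then differed by -1.01.

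Of 17 genes of glycolysis, 4 were called higher in knockdown SNM, and 3 lower and 2 higher at the neuronal stage. Over all symbols 12% were higher in SNM, and 14.4% were lower and 14.3% higher at the neuronal stage, so the neuronal counts were near the share of all symbols. The muscle enzymes Pgam2 (2.03 and -6.44 on the log2 scale at the SNM and neuronal stages) and Eno3 (0.66 and -5.54) had the same signs as Cox8b and Cox6a2. Aldoc, the brain aldolase, was higher at both stages, by 1.20 and 1.30.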

How the data were processed

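The authors deposited, for each probe and array, an average bead signal intensity with no background subtracted and no normalization, made with Illumina's BeadArray software, and a detection p-value. Per the file headers a second deposited table held the probe annotation, used here for symbols only; its 72 columns of per-sample values are named by chip and position and were not used, so chip could not be tested as a batch. For background correction and normalization, neqc was run (limma 3.58.1, R 4.3.3), which estimates background from the detection p-values, adds an offset of 16, normalizes by quantiles and takes log2. A limma model with 6 conditions was fitted to all 18 arrays, with 8 contrasts between conditions. Tests are two-sided, and 3 arrays against 3 limit the precision. The depth of a bead array is its number of arrays and its signal over background.

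Members and lists were chosen with earlier results of these data known. The genes given in full are the tissue forms of complex IV and their partners, core subunits, and per complex and comparison of knockdown and control cells the called members with the largest change. Of other lists at most 4 genes were to be named, and the regulators called in SNM were named after their values were seen. Of the 81 symbols, 77 were matched to RefSeq and for 6 the current symbol differs; symbols are those of the array. Promoters come from RefSeq (GRCm38.p6). The fit was tested on simulated data. Sample titles number the arrays. Same-numbered arrays of control and knockdown cells were compared by their deviations from the condition means. Correlations were 0.486, 0.108 and 0.489 in SNM, 0.605, 0.094 and 0.325 at the neuronal stage, and -0.094, 0.025 and 0.096 in ES cells. Between same-numbered SNM and neuronal arrays they were 0.522, 0.139 and 0.511 in knockdown cells and 0.597, -0.117 and 0.342 in control cells. A block for the number was an alternative. The others were other normalizations, filters, thresholds, probe averages, the methods' t-test and leaving out each array.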

Additional observations from a re-analysis of the deposited data

Results flagged for a closer look

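The effect of the knockdown differed between the SNM and the neuronal stage, by a test of the difference itself in the limma model, for 8 members of the respiratory chain and ATP synthase: it was lower at the neuronal stage for 7 and higher for 1. Among all symbols tested, 16% were called lower and 13.3% higher, so the members called were fewer in proportion. Hprt1 itself was lowered less at the SNM than at the neuronal stage. On the log2 scale the difference (neuronal minus SNM) was -9.61 for Cox8b and -6.24 for Cox6a2. Cox8b was not detected in knockdown cells of the neuronal stage, so its value is not a bound. It was -1.68 for Cox7a1, -0.99 for Ndufb7 and -0.94 for Ndufa5. It was -0.60 for Cox7b and -0.59 for Ndufa11, small subunits of complexes IV and I. The positive difference was 0.59 for Atp5g2, which stood at 11.48, 11.50 and 11.52 in control and 11.01, 10.93 and 11.17 in knockdown SNM, and whose arrays overlapped at the neuronal stage. The calls of Cox8b, Cox6a2 and Cox7a1 held under all 27 alternatives and those of Ndufb7 and Ndufa5 under 26. The smallest differences among the 27 were -6.97 for Cox8b and -4.57 for Cox6a2. Cox7b and Atp5g2 were called under 20 and Ndufa11 under 18. Under each of the 3 other normalizations, Cox7b and Ndufa11 were not called, and Atp5g2 was not called under quantile normalization without background correction. The call of Cox7b was also lost without control neuronal array 3, knockdown SNM array 3 or knockdown neuronal array 2. That of Atp5g2 was lost without control neuronal array 2 or array 1 or 2 of the knockdown SNM or neuronal cells. That of Ndufa11 was also lost without control neuronal array 1, control SNM array 2 or 3, knockdown SNM array 1 or knockdown neuronal array 3. No group had enough arrays for a test of single outlying arrays.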

How the results depend on the processing

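The neuronal-stage differences of Cox8b, Cox6a2 and Cox7a1 kept their direction and call under all 29 alternatives, and no difference between knockdown and control cells reversed for any member called. With no minimum change, the knockdown gave 4 higher and 1 lower members in ES cells, 22 and 8 in SNM and 8 and 42 in cells of the neuronal stage. Over all symbols, 6.53% were higher and 5.95% lower in ES cells and 26.8% and 27.8% in SNM. The shares were 30% and 30.2% at the neuronal stage. From ES to SNM the member counts were 23 and 24 in control cells (36.7% and 39.9% of all symbols) and 29 and 23 in knockdown cells (38.7% and 43%). From SNM to the neuronal stage they were 44 and 8 (28.4% and 34.5%) and then 12 and 19 (28.7% and 33.5%). For the difference of the knockdown effect they were 5 and 38 (24.2% and 24.4%). For the counts at 2-fold and under the other settings that follow, the share of all symbols called was not counted. At a minimum of 2-fold, 3 members were lower in knockdown cells of the neuronal stage. From ES to SNM 0 were higher and 5 lower in control and 2 and 4 in knockdown cells, from SNM to the neuronal stage 1 was lower in control and 0 higher in knockdown cells, and the knockdown effect was higher for 0 and lower for 3.

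Without background correction, under quantile normalization, 0 members were higher from ES to SNM in control cells, 0 from SNM to the neuronal stage in knockdown cells and 0 for the difference of the knockdown effect. With scaling to the 75th percentile these counts were 0, 0 and 3, and in knockdown cells from ES to SNM 2 were higher and 19 lower. With background correction and no normalization between arrays they were 5, 0 and 2, and 5 were lower from ES to SNM in control cells. The cause was not tested. The SNM-stage median of 0.06 turned to -0.08 with that percentile and -0.04 without normalization between arrays. Over all symbols, the percentile moved the ES to SNM median to -0.15 in control and -0.20 in knockdown cells, and no normalization to 0.21 and 0.14. Without normalization the share of higher calls among all called symbols moved from 29.4% to 59.2% between knockdown and control ES cells, and from ES to SNM from 50.8% to 68.7% in control and from 48.7% to 60.8% in knockdown cells.

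Leaving out 1 array, from ES to SNM 2 to 5 members were higher in control cells (5 without control SNM array 3). From SNM to the neuronal stage, 3 to 6 were higher in control cells (5 without control SNM array 1 or 2, 6 without control neuronal array 2) and 2 to 4 lower (4 without control SNM array 3). In knockdown cells 0 to 2 were higher, with 2 without SNM array 1 or neuronal array 3 and 0 without neuronal array 2 or SNM array 3. The knockdown effect was higher at the neuronal stage for 0 to 2: for 0 without knockdown array 1 of either stage, knockdown SNM array 2 or control neuronal array 2, and for 2 without control neuronal array 1, control SNM array 2 or knockdown SNM array 3. With the array number as a block, 2 members were higher at the SNM stage and 6 lower at the neuronal stage, and these and all other counts were as without it. The methods' t-test was run unpaired on the levels used here, at an unadjusted p under 0.05 and 1.5-fold. It gave 2 members higher at the SNM stage and 6 lower at the neuronal stage. After Benjamini-Hochberg adjustment it gave 2 and 5, losing Ndufa10 (adjusted p = 0.0797). The paired form, which the methods also name, was not run. Levels near the floor, as of Cox4i2, are limited by signal over background.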
